A study of Arabidopsis thaliana with 8 samples.

Results

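Group IX of the ethylene response factors (ERFs) is a family of transcription factors that switch on defence genes, and 10 of its genes are described here: *ERF1* (AT3G23240), *ERF15* (AT2G31230), *ORA59* (AT1G06160), *ERF13* (AT2G44840), *ERF1A* (AT4G17500), *ERF2* (AT5G47220), *ERF5* (AT5G47230), *ERF6* (AT4G17490), *ERF104* (AT5G61600) and *ERF105* (AT5G51190). They were picked by locus identifier from 33544 listed genes, with their values in these libraries already known, so their values are a description and no test of them is given. Roots of 4-day-old *Arabidopsis thaliana* seedlings were compared between wild type of the WS ecotype and *gpa1-2*, a null mutant of the heterotrimeric G protein α subunit (Gα), either before ATP treatment or after 60 min on medium with ATP. The age of 4 days is that of the labels, and the study's text gives older seedlings for its expression work in places. According to the labels each of the 4 conditions had 2 biological replicates (8 samples), whereas 1 value per gene stands for a condition in the tables. Hence there is no replicate error for any value below, and every difference is one between libraries. The untreated roots are labelled as taken before treatment, so an effect of ATP and an effect of the transfer or of 60 min of time cannot be told apart. Less RNA per cell and fewer cells of one type cannot be told apart either.

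Extracellular ATP is released from wounded and stretched plant cells and is sensed at the cell surface as a danger signal. ERFs of group IX carry an AP2/ERF domain, by which they bind the GCC box in promoters of defence genes such as plant defensins and basic chitinases. Ethylene, through the transcription factors EIN3 and EIL1, and jasmonate, through the removal of JAZ repressors, control their transcription, and mitogen-activated protein kinases phosphorylate several of them. Within the group, subgroup IXc holds *ERF1*, *ERF15* and *ORA59*, subgroup IXa holds *ERF13*, *ERF1A* and *ERF2*, and subgroup IXb holds *ERF5*, *ERF6*, *ERF104* and *ERF105*.

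The 4 libraries held between 11769875 and 13483769 reads, as recovered from the scaled counts. All 7 root markers (*PLT1*, *PLT2*, *SHR*, *SCR*, *PIN2*, *EXPA7* and *COBL9*) were at 1 FPKM or more in every library. On the response scale defined below, *PIN2* was raised in WS (1.14) and was at 0.82 in *gpa1-2*. The median response of the 7 was 0.17 in WS, with 5 above 0, and 0.48 in *gpa1-2*, with 7 above 0. Whether the part of the root sampled was the same before and after ATP was not tested. Of 8 leaf photosynthesis markers, between 2 and 4 reached 1 FPKM in a library, and their summed level was 17.2 FPKM before and 13.9 FPKM after ATP in WS, and 18.0 and 5.93 FPKM in *gpa1-2*. *RBCS1A* was lowered in both genotypes (-1.25 and -2.11). *LHCB1.3* was at 0.08 in WS and -0.52 in *gpa1-2*, and *LHCA1* at -0.02 and -0.65. *LHCB1.4* was at -0.10 in WS and at -1.13 in *gpa1-2*, there with 15 reads before and 2 after ATP. *RBCS1B* and *RBCS2B* had 1 read or none in each library. The part of shoot RNA in the responses below was not tested. The *GPA1* transcript (AT2G26300) was at 51.9 FPKM before and 46.5 FPKM after ATP in WS and at 28.6 and 31.1 FPKM in *gpa1-2*, so its reads were fewer in the mutant but not absent.

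After ATP treatment most of the group IX genes were lower than before it, in both genotypes. The response was taken as ATP-treated minus untreated on the log2(FPKM + 1) scale, where FPKM is the number of sequenced fragments of a gene scaled by its length and by the size of the library, and a gene was called lowered at -1 or less and raised at 1 or more. In WS 7 of the 10 genes were lowered and none was raised, where 4.28% of all 19901 genes with at least 1 FPKM were lowered and 3.75% raised. In *gpa1-2* 5 of the 9 genes that reached 1 FPKM were lowered and none was raised, against 3.78% lowered and 3.6% raised of 19865 genes. By the exact counting interval described below, 8 of the 10 were lower and 1 higher in WS, and 8 of 9 lower and none higher in *gpa1-2*, but such an interval left out no change for 22.8% of all genes lower and 23.4% higher in WS, and for 22.0% and 27.0% in *gpa1-2*, so it was not used as a call. Their responses had a median of -1.22 in WS (10 genes) and -1.14 in *gpa1-2* (9 genes), beside -0.01 and 0.03 for all genes. *ERF1*, *ERF13*, *ERF2* and *ERF105* were lowered in both genotypes, which is 4 of the 7 lowered in WS and 4 of the 5 lowered in *gpa1-2*. With a pseudocount of 5 in place of 1 the lowered genes were 4 in WS, where *ERF15*, *ERF6* and *ERF105* lost the call, and 3 in *gpa1-2*, where *ERF104* and *ERF105* lost it. The treatment belongs to the columns only through the assignment described under processing, and were untreated and treated columns exchanged, every sign would turn. The fall of *ERF1* is opposite in direction to what the study describes for this gene by quantitative PCR. The study also describes the genes it took to that assay as up-regulated in WS, after giving its genome-wide counts. The values here do not settle the difference.

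**Figure D1:**
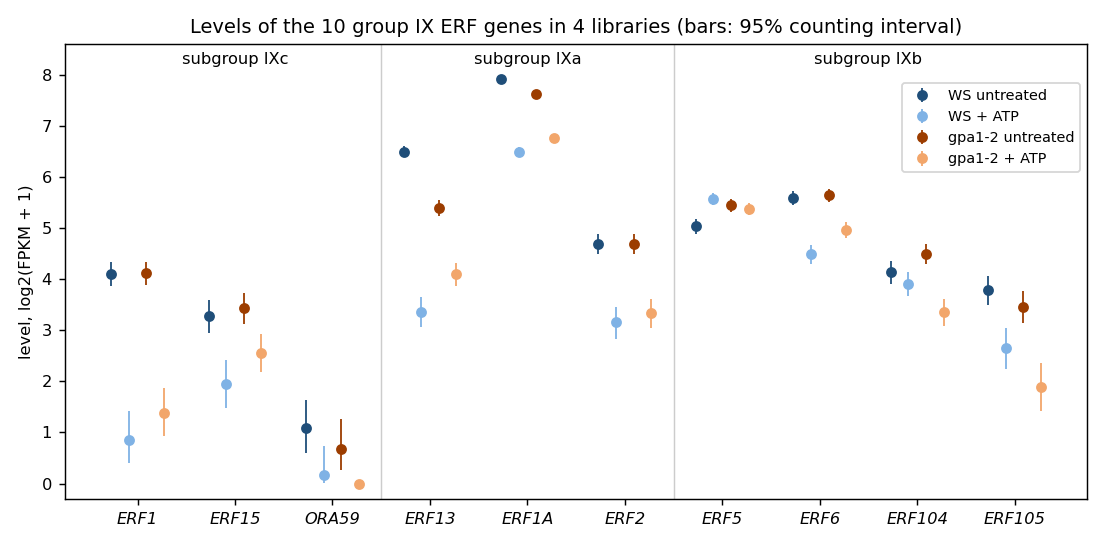
Level of each of the 10 genes, as log2(FPKM + 1) on the vertical axis, in the 4 libraries, grouped by subgroup. Bars are exact 95% Poisson intervals of the reads and cover counting error only; *ORA59* had no read in ATP-treated *gpa1-2* and has no bar there. Untreated libraries lie above ATP-treated ones of the same genotype for every gene except *ERF5* in WS, and by most for *ERF1* and *ERF13* in WS.

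Subgroup IXc joins the ethylene and jasmonate pathways. *ERF1*, a direct target of EIN3 that activates defensin and chitinase genes, had 16.1 FPKM in untreated WS (135 reads) and 0.814 FPKM in ATP-treated WS (7 reads). In *gpa1-2* it went from 16.3 FPKM (141 reads) to 1.61 FPKM (15 reads). It fell in both genotypes from nearly the same level, and few reads were left after treatment in either. By reads it was 19.8-fold lower after ATP in WS (counting interval 9.35 to 50.2) and 10.1-fold lower in *gpa1-2* (interval 5.94 to 18.6). These and all intervals below are exact 95% intervals that cover counting error only and compare libraries. Of 15519 genes with 20 reads or more in each genotype and at least 5 FPKM in some library, 4 had a lower response than *ERF1* in WS and 8 in *gpa1-2*.

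*ERF15*, described as a positive regulator of abscisic acid responses and of immunity, went from 8.64 FPKM (65 reads) to 2.85 FPKM (22 reads) in WS and from 9.80 FPKM (76 reads) to 4.90 FPKM (41 reads) in *gpa1-2*. It fell in WS with a response of -1.32, and its response of -0.87 in *gpa1-2* did not reach the threshold. *ORA59*, which integrates jasmonate and ethylene signals and is needed for defensin expression in leaves, was nearly silent in these roots. It had 9 reads before and 1 read after ATP in WS, and 5 reads and none in *gpa1-2*, where a count of 0 allows up to 3 reads. Its level never exceeded 1.12 FPKM, and no response is drawn from it.

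Subgroup IXa held the most abundant member. *ERF1A*, an early activator of GCC-box genes, stood at 239.6 FPKM (2154 reads) before and 89.1 FPKM (822 reads) after ATP in WS, and at 196.0 FPKM (1817 reads) and 106.8 FPKM (1068 reads) in *gpa1-2*. It made up 45.2% to 49.1% of the summed FPKM of the 10 genes in the 4 libraries. It fell in WS, 2.69-fold by reads (interval 2.48 to 2.92), and was 1.83-fold lower in *gpa1-2* (interval 1.70 to 1.98), a response of -0.87 that did not reach the threshold. *ERF2*, its close relative and an activator of jasmonate-responsive defence genes, went from 24.9 to 7.90 FPKM in WS, and in *gpa1-2* from 24.8 to 9.11 FPKM. It fell in both libraries by much the same factor, 3.15-fold (interval 2.39 to 4.21) and 2.73-fold (interval 2.11 to 3.55).

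*ERF13*, described as a brake on lateral root emergence, had the second highest level of the 10 in untreated WS. Its level in WS was 89.2 FPKM (719 reads) before and 9.31 FPKM (77 reads) after ATP. In *gpa1-2* it was at 40.9 FPKM (340 reads) before and 16.1 FPKM (144 reads) after treatment. The mutant was thus below WS before ATP and above it afterwards. *ERF13* fell 9.58-fold by reads in WS (interval 7.57 to 12.3) and 2.55-fold in *gpa1-2* (interval 2.09 to 3.12), responses of -3.13 and -1.30. Only 8 of the 15519 genes had a lower response in WS, and 249 in *gpa1-2*.

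Subgroup IXb, whose members take part in kinase signalling and in the arrest of growth under stress, held genes with responses of either sign in WS. *ERF5*, which acts in chitin signalling and restricts leaf growth under osmotic stress, had 31.9 FPKM (348 reads) before and 46.4 FPKM (520 reads) after ATP in WS. In *gpa1-2* it was at 42.6 FPKM (480 reads) and 40.4 FPKM (491 reads). It was the only one of the 10 with a positive response in WS, 0.53, which did not reach the threshold, and it was nearly flat in *gpa1-2* at -0.07. *ERF6*, its closest relative in function and a substrate of MPK3 and MPK6, differed from it: its level went from 47.1 to 21.4 FPKM in WS, a fall of 2.20-fold by reads (interval 1.86 to 2.61). In *gpa1-2* the level of *ERF6* went from 49.0 to 30.1 FPKM, a response of -0.69 that did not reach the threshold.

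*ERF104*, a substrate of MPK6 that is released from the kinase by flagellin perception, had 16.5 FPKM (154 reads) before and 14.0 FPKM (134 reads) after ATP in WS. In *gpa1-2* it fell from 21.5 FPKM (206 reads) to 9.18 FPKM (95 reads). Of the 10 genes it was the only one lowered in *gpa1-2* and not in WS, a call that ended with a pseudocount of 5 (-0.90 in *gpa1-2*). The counting interval of its WS ratio, 0.668 to 1.08, includes no change, whereas it was 2.34-fold lower in *gpa1-2* (interval 1.83 to 3.01). *ERF105*, which contributes to freezing tolerance, fell in both genotypes, from 12.8 to 5.31 FPKM in WS, and in *gpa1-2* from 10.02 to 2.71 FPKM. Its responses were -1.13 and -1.57, and the annotated gene AT5G51180 overlaps *ERF105*, so reads may have been shared between them.

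FPKM is per length, so levels can be set side by side. In untreated WS the order was *ERF1A*, *ERF13*, *ERF6*, *ERF5*, *ERF2*, *ERF104*, *ERF1*, *ERF105*, *ERF15* and *ORA59*. Counting intervals of neighbours overlapped from *ERF104* to *ERF15* and not elsewhere in that order. In ATP-treated WS the order was *ERF1A*, *ERF5*, *ERF6*, *ERF104*, *ERF13*, *ERF2*, *ERF105*, *ERF15*, *ERF1* and *ORA59*, with overlapping intervals from *ERF13* to *ERF15* and between *ERF1* and *ORA59*. In *gpa1-2* the untreated order was *ERF1A*, *ERF6*, *ERF5*, *ERF13*, *ERF2*, *ERF104*, *ERF1*, *ERF105*, *ERF15* and *ORA59*, where neighbours overlapped from *ERF6* to *ERF13*, from *ERF2* to *ERF1* and between *ERF105* and *ERF15*. After ATP it was *ERF1A*, *ERF5*, *ERF6*, *ERF13*, *ERF104*, *ERF2*, *ERF15*, *ERF105*, *ERF1* and *ORA59*, where *ERF104* and *ERF2* overlapped, as did neighbours from *ERF15* to *ERF1*. In WS *ERF13* thus moved from the second to the fifth place and *ERF1* from the seventh to the ninth. *ERF5* moved from the fourth to the second place, and its share of the summed FPKM of the 10 genes went from 6.53% to 23.5% in WS and from 10.4% to 18.3% in *gpa1-2*. The summed FPKM itself was 487.8 before and 197.2 after ATP in WS, and 411.6 and 220.9 in *gpa1-2*.

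**Figure D2:**
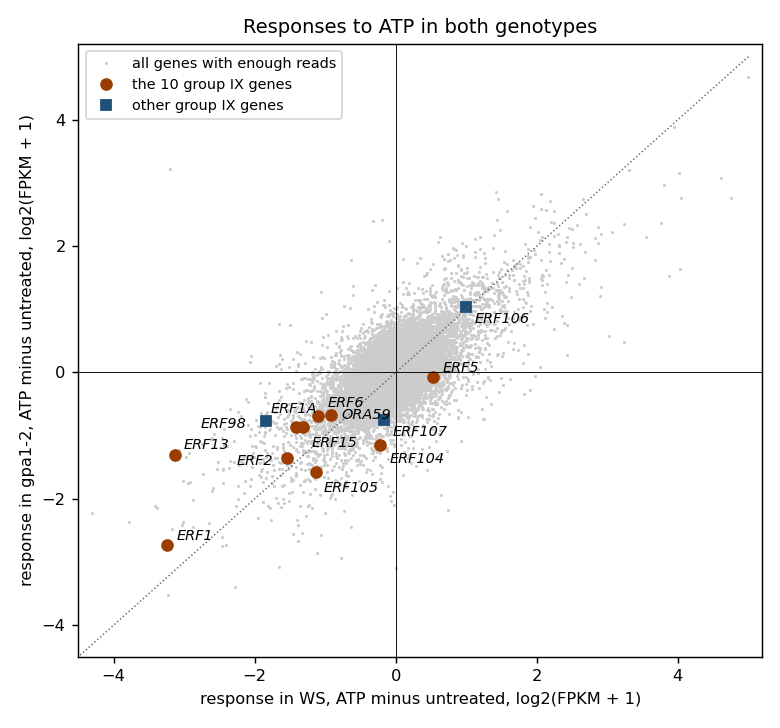
Response to ATP in WS (horizontal) and in *gpa1-2* (vertical), each as ATP-treated minus untreated log2(FPKM + 1). Brown circles are the 10 genes, blue squares other group IX genes with 20 reads or more in each genotype, grey dots the 15519 genes described in the text, and the dotted line marks equal responses. *ERF1* lies at -3.24 and -2.73, *ERF13* well above the dotted line at -3.13 and -1.30, and *ERF104* below it at -0.22 and -1.14.

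The study asked whether Gα takes part in the response of roots to ATP, which the comparison of the responses between WS and *gpa1-2* addresses. The difference, response in WS minus response in *gpa1-2*, reached 1 in size for 1 of the 10 genes, *ERF13* at -1.83, where 5.83% of 20350 genes reached it in either direction. Among the 15519 genes 16 had a lower difference than *ERF13*. By reads the ATP-to-untreated ratio of *ERF13* in WS was 0.266 of that in *gpa1-2* (interval 0.193 to 0.364). The same ratio of ratios was 0.682 for *ERF1A* (interval 0.610 to 0.763) and 0.740 for *ERF6* (interval 0.590 to 0.927), so these were lower after ATP in WS by more than in the mutant. It pointed the other way for *ERF104*, at 1.98 (interval 1.398 to 2.81), and for *ERF5*, at 1.54 (interval 1.27 to 1.86). For *ERF1* it was 0.512, and the interval from 0.172 to 1.39 includes no difference at this depth. The intervals also include no difference for *ERF15* (0.338 to 1.27), *ERF2* (0.586 to 1.28) and *ERF105* (0.798 to 3.01). None of these differences could be tested against replicate spread. The share of all genes whose interval for this ratio of ratios leaves out no difference was not counted. These intervals were therefore not used as a call.

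**Figure D3:**
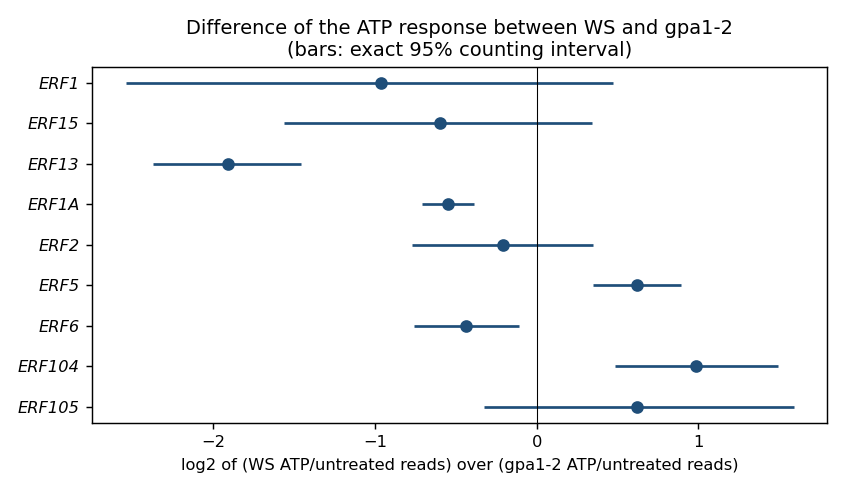
Log2 of the ATP-to-untreated ratio of reads in WS over that in *gpa1-2* for 9 genes, with exact 95% counting intervals as bars; *ORA59* is left out because it had no read in ATP-treated *gpa1-2*. A value below 0 means a lower ratio in WS. *ERF13*, *ERF1A* and *ERF6* lie wholly below 0 and *ERF5* and *ERF104* wholly above it. The share of all genes with such a bar was not counted, and the bars were not used as a call.

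The levels themselves were also compared between the genotypes. In untreated roots 1 of the 10 genes differed by at least 1 between *gpa1-2* and WS, *ERF13*, which was lower in *gpa1-2* by 2.18-fold in reads (interval 1.91 to 2.49), and 2.18% of 19826 genes differed in either direction. *ERF1* was at 1.01 of its WS level (interval 0.794 to 1.29), *ERF2* at 0.998 (interval 0.821 to 1.21) and *ERF6* at 1.04 (interval 0.912 to 1.19). The remaining genes with at least 20 reads lay between 0.785 for *ERF105* and 1.34 for *ERF5*. In ATP-treated roots none of the 9 genes at 1 FPKM or more differed by 1, against 2.67% of 19774 genes. There the ratio of *gpa1-2* to WS ran from 0.510 for *ERF105* (interval 0.284 to 0.891) to 1.98 for *ERF1* (interval 0.759 to 5.73). *ERF13*, the lower one before treatment, was then at 1.73 of its WS level (interval 1.299 to 2.31).

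The other 7 genes of group IX did not share one direction. *ERF98*, a regulator of defence that neighbours *ERF1* on chromosome 3, had 17.0 FPKM (41 reads) before and 4.04 FPKM (10 reads) after ATP in WS, and 25.3 FPKM (63 reads) and 14.5 FPKM (39 reads) in *gpa1-2*. It fell in WS with a response of -1.84, and its response of -0.76 in *gpa1-2* did not reach the threshold. *ERF106* (AT5G07580) stood apart, since its level after ATP was above that before it, at 32.1 and 64.8 FPKM in WS and 27.7 and 58.2 FPKM in *gpa1-2*. Its response of 1.04 in *gpa1-2* passed the threshold and that of 0.99 in WS lay just under it, and it overlaps the annotated gene AT5G07590. *ERF107*, also known as DEWAX, a repressor of wax synthesis, went from 26.4 to 23.3 FPKM in WS, and in *gpa1-2* from 31.5 to 18.3 FPKM, a pair of responses (-0.17 and -0.75) with the same order as that of *ERF104*, the coding gene next to it on chromosome 5. *ERF14* had no reads before and 4 reads after ATP in each genotype, too few to read a response from although it counted as raised, *ESE1* and *ERF091* had at most 5 reads in any library, and *ERF96* had none in any.

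Neighbouring genes did not always move together. *ERF6* and *ERF1A* are adjacent coding genes on chromosome 4, and both were lowered in WS and below their untreated level but short of the threshold in *gpa1-2*. *ERF2* and *ERF5* lie on chromosome 5 with 1 coding gene between them, and *ERF2* was lowered in both genotypes whereas *ERF5* was at 0.53 and -0.07.

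No ethylene signalling gene of the list followed here reached the threshold for lowered. The list held 12 genes, from the receptors to *EIN3*, *EIL1* and the F-box genes *EBF1* and *EBF2*. None was lowered in either genotype, and 2 were raised in WS and none in *gpa1-2*. Of all genes, 4.28% were lowered and 3.75% raised in WS, and 3.78% and 3.6% in *gpa1-2*. A count of 0 lowered in a list of 12 is near those shares. *ETR2*, an ethylene receptor gene that ethylene itself induces, rose from 8.08 to 33.2 FPKM in WS (response 1.91), and went from 7.54 to 15.7 FPKM in *gpa1-2* (response 0.97). *EBF2*, which targets EIN3 for degradation and is itself induced by EIN3, rose from 76.3 to 191.5 FPKM in WS and was at 84.4 and 158.6 FPKM in *gpa1-2*, responses of 1.32 and 0.90. The transcript of *EIN3*, the activator of *ERF1*, had responses of 0.20 and 0.10. The median response of the list was 0.17 in WS and 0.11 in *gpa1-2*. Responses were below 0 for 3 of the 12 genes in WS and for 4 in *gpa1-2*. The lowest was that of *EIN2* in *gpa1-2*, at -0.54 (ratio interval 0.632 to 0.730), and *EIN2* was at -0.10 in WS.

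Jasmonate signalling genes were lowered in larger number in the WS library. Of 16 genes, *COI1*, the MYC factors and the JAZ repressors, 9 were lowered and 1 was raised in WS, and 2 were lowered and none raised in *gpa1-2*. Of all genes, 4.28% were lowered and 3.75% raised in WS, and 3.78% and 3.6% in *gpa1-2*. Responses below 0, whether or not they reached the threshold, were found for 13 of the 16 genes in WS and 10 in *gpa1-2*. The median response was -1.29 in WS and -0.23 in *gpa1-2*. *MYC2*, a master regulator of jasmonate responses that restrains *ERF1* and *ORA59*, fell from 274.1 to 74.4 FPKM in WS, and in *gpa1-2* from 217.2 to 80.5 FPKM. *JAZ7* fell in both, with responses of -2.45 and -1.75. *JAZ5* fell in WS, at -2.32, and was at -0.78 in *gpa1-2*, with *JAZ2* at -2.10 and -0.83 and *JAZ9* at -1.86 and -0.32. *JAZ8* fell in WS, at -2.05, and had 0.26 in *gpa1-2*. The difference in response was -1 or less for 5 of the 16 genes and in no case 1 or more, against 2.8% and 3.03% of all genes. The genotypes also differed before ATP. In untreated roots 12 of the 16 genes were lower in *gpa1-2* than in WS, with a median of -0.36. After ATP 11 were higher in *gpa1-2*, with a median of 0.38. The part of the untreated level in the difference in response was not tested.

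Among kinases that act on these factors, *MPK3* fell from 91.1 to 22.3 FPKM in WS, and in the mutant from 68.5 to 29.8 FPKM, with responses of -1.99 and -1.17. The other 4 genes of that list, *MPK6*, *MKK4*, *MKK5* and *MKK9*, passed the threshold in neither genotype. Of 4 genes that *ERF5* or *ERF6* raise in leaves, 3 fell in both genotypes. These were *ZAT10*, a stress zinc finger gene (-2.05 and -1.33), *WRKY33*, a regulator of camalexin synthesis (-1.81 and -2.12), and *MYB51*, a regulator of indole glucosinolate synthesis (-1.27 and -2.27). *GA2OX6*, which encodes a gibberellin-inactivating enzyme, was at 0.39 and 0.78. Beside these counts, 4.28% of all genes were lowered in WS and 3.78% in *gpa1-2*.

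Of 9 defence genes listed as targets of GCC-box factors, 5 had no reads, and their promoters were not examined here. The defensin genes *PDF1.2a*, *PDF1.2b*, *PDF1.2c* and *PDF1.3* and the thionin gene *THI2.1* were the silent ones in all libraries, which allows up to 3 reads each. *HEL*, which encodes a hevein-like protein, was at 348.4 FPKM before and 191.6 FPKM after ATP in WS, a response of -0.86, and fell from 457.9 to 215.6 FPKM in *gpa1-2* (response -1.08). *OSM34*, an osmotin-like gene, was at 85.2 and 54.5 FPKM in WS, a response of -0.64, and fell from 193.9 to 35.0 FPKM in *gpa1-2* (response -2.44). The chitinase gene *HCHIB* had responses of -0.40 and -0.42. *PDF1.1* rose from no reads to 25 in WS, at least 8.12-fold against a limit of 3 reads in the library (the exact counting interval of the ratio starts at 6.13), and had none and then 3 reads in *gpa1-2*, which counted as raised but for which no fold is given. Of the 4 genes of this list at 1 FPKM or more, none was lowered and 1 raised in WS, and 2 were lowered and 1 raised in *gpa1-2*. The shares of all genes were 4.28% lowered and 3.75% raised in WS, and 3.78% and 3.6% in *gpa1-2*.

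**Figure D4:**
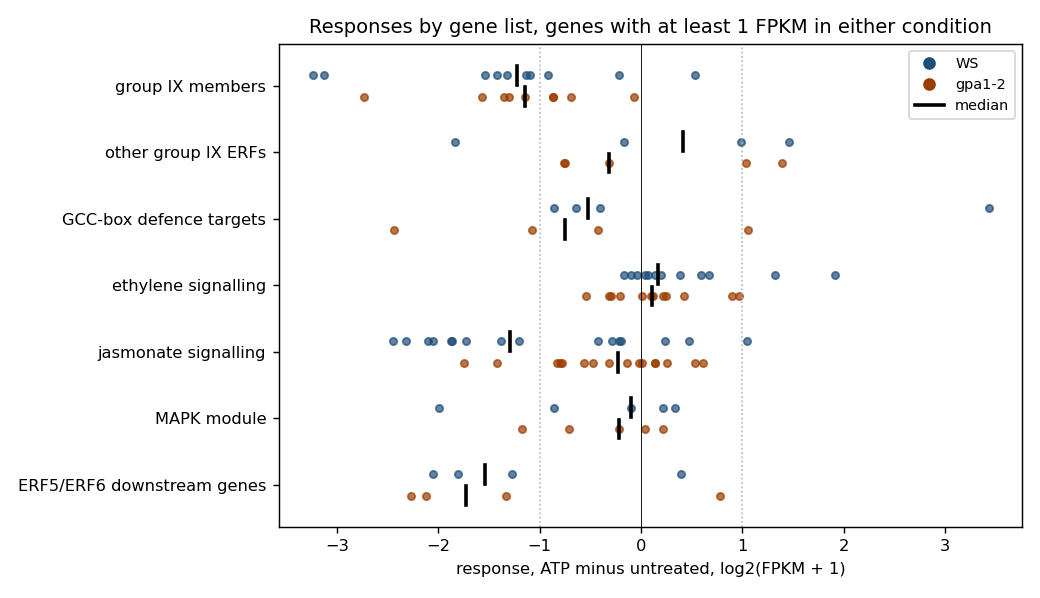
Responses to ATP (horizontal axis, ATP-treated minus untreated log2(FPKM + 1)) of the genes of each named list with at least 1 FPKM in either condition of a genotype. Blue points are WS, brown points *gpa1-2*, black bars the median, and dotted lines the threshold of 1. The medians of the group IX genes described first lie at -1.22 and -1.14, those of ethylene signalling at 0.17 and 0.11, and those of jasmonate signalling at -1.29 and -0.23.

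Genes induced by touch and handling were followed too. In them an effect of handling and an effect of ATP cannot be told apart in this design. Of 4, *TCH2* fell in WS (-1.03) and was at -0.67 in *gpa1-2*, *TCH4* rose in *gpa1-2* (1.31) and was at 0.67 in WS, and *TCH3* and *CAM2* passed in neither. Their summed level was 821.2 FPKM before and 954.4 FPKM after ATP in WS, and 810.4 and 1119 FPKM in *gpa1-2*. The part of handling in the fall of the group IX genes was not tested.

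The genes most like *ERF1* in their pair of responses, by Euclidean distance among the same 15519 genes, were *SZF1* (AT3G55980, distance 0.27), *DDF1* (AT1G12610, 0.37), *UMAMIT17* (AT4G08300, 0.43), *CAF1a* (AT3G44260, 0.47) and AT2G25200 (0.59). *SZF1* encodes a CCCH zinc finger protein induced by salt, *DDF1* a further AP2/ERF factor of the DREB branch and *CAF1a* a subunit of the deadenylase complex. Those most like *ERF104* were *PEX11D* (AT2G45740, 0.02), *PIL2* (AT3G62090, 0.05), *GSTF2* (AT4G02520, 0.09), *THIC* (AT2G29630, 0.09) and AT5G36185 (0.09). The likeness rests on a pair of responses from 4 libraries.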

How the data were processed

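The authors deposited 1 table for WS and 1 for *gpa1-2*, each with a scaled count, which is a signal and not a raw count, and an FPKM value per gene and condition. The labels and methods describe Affymetrix arrays, which do not give such values; aligner, annotation and genome build are not given in the sources used here. Columns carry sample numbers only. The genotype was taken from the table and the treatment from the numbers of up- and down-regulated genes the study gives for ATP, so the assignment is not independent of the values. Columns with the authors' fold change, p-value, FDR and calls were not used for results, and 0 columns of sample values were left unused. Each table also held empty lines (13).

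Responses were computed as log2(FPKM + 1), ATP-treated minus untreated, over genes with at least 1 FPKM in a compared condition, with a threshold of 1. The design named no test, because each condition has a single value. Reads were recovered by dividing scaled counts by the worth of 1 read (0.506 to 0.563), and 98.9% to 99.2% of values up to 20 reads were whole within 0.1 of a read. Ratios of reads are on the deposited scale, with exact 95% intervals (Clopper-Pearson, the conditional odds ratio for ratios of ratios, Poisson for levels) that cover counting error only. The functions were tested on simulated data.

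The members and gene lists were chosen with earlier results of these data known. Named are the 10 genes, the other 7 of group IX, up to 6 genes of each further list that passed the threshold with at least 20 reads, the 5 genes nearest to *ERF1* and to *ERF104*, and *GPA1*. Other list members were named with their values in view. Symbols came from a RefSeq table (TAIR10.1), which held 32797 of the 33544 identifiers. Alternatives were pseudocounts, filters, scalings, the threshold and scaled counts in place of FPKM. The tools were Python 3.11.15 with scipy 1.17.1, pandas 2.3.3, numpy 2.4.6 and matplotlib 3.10.9.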

Additional observations from a re-analysis of the deposited data

Results flagged for a closer look

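The genes below had responses of opposite sign in WS and *gpa1-2*, and in no case was the difference tested, because each condition has a single value. *ERF5* had a response of 0.53 in WS and -0.07 in *gpa1-2*, a difference of 0.60 on the log2(FPKM + 1) scale, and the counting interval of its *gpa1-2* ratio, 0.835 to 1.08, includes no change. *JAZ8* had a response of -2.05 in WS and 0.26 in *gpa1-2*, a difference of -2.30, and its *gpa1-2* interval, 0.937 to 1.55, includes no change too. *JAZ8* was at 65.5 FPKM before and 15.1 FPKM after ATP in WS and at 27.6 and 33.3 FPKM in *gpa1-2*.

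For 3 further genes of the lists the counting intervals of the ATP-to-untreated ratio lay on opposite sides of no change. They were found by searching the lists for this pattern, and its share among all genes was not counted. *JAZ10* was at -1.38 in WS (ratio interval 0.340 to 0.389) and 0.14 in *gpa1-2* (interval 1.01 to 1.14), a difference of -1.52. *JAZ3* was at -0.29 (interval 0.770 to 0.892) and 0.53 (interval 1.37 to 1.58), a difference of -0.82. *EXPA7*, a root hair expansin gene used here as a root marker, was at -0.42 (interval 0.666 to 0.833) and 0.24 (interval 1.07 to 1.32), a difference of -0.66. The intervals cover counting error only.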

How the results depend on the processing

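No paired analysis was possible because the tables hold 1 value per condition and carry no replicate numbers, and for the same reason no replicate could be left out. With a pseudocount of 5, the lowered genes among the 10 were 4 in WS in place of 7 and 3 in *gpa1-2* in place of 5. With a threshold of 2 they were 2 in WS and 1 in *gpa1-2*, and 0 genes differed between genotypes, in response or in untreated roots, in place of 1 each. The other settings left every such count within 1.5 times. Every ATP response of the 10 genes kept its sign under the pseudocounts, median centring, upper-quartile scaling, quantile normalization and scaled counts. That of *ERF1* in WS ranged from -4.15 to -1.86 and that of *ERF13* from -3.25 to -2.72. Of 300 values recomputed per gene and setting, 296 moved by no more than the counting error, values of *ORA59* without a bounded interval included, and 4 by more. *ORA59*, *ESE1*, *ERF091*, *ERF14* and *ERF96* had 9 reads or fewer in each library.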

Other observations

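Repressor ERFs of group VIII, which carry the EAR motif and counter the activators at GCC boxes, mostly stayed within the threshold. Of 8, *ERF11*, which restrains ethylene synthesis, fell from 36.7 to 4.70 FPKM in WS, and in the mutant from 18.1 to 5.29 FPKM, with responses of -2.73 and -1.61. *ERF12* rose in *gpa1-2* (1.1, from 4 to 19 reads) and was at 0.42 in WS. The other 6 passed the threshold in neither genotype, and the list's median was 0.19 in WS and 0.28 in *gpa1-2*. For all genes the shares were 4.28% lowered and 3.75% raised in WS, and 3.78% and 3.6% in *gpa1-2*.

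Among ethylene synthesis genes, *ACS6*, an ACC synthase that MPK3 and MPK6 stabilise, fell from 125.4 to 27.9 FPKM in WS, and in the mutant from 68.5 to 26.7 FPKM, with responses of -2.13 and -1.33. *ACO3* fell in WS (-1.30, and -0.44 in *gpa1-2*), and *ACS2* fell in *gpa1-2* (-1.01, and -0.60 in WS). Of the 9 genes of this list at 1 FPKM or more, 2 were lowered and none raised in each genotype. Among all genes 4.28% were lowered in WS and 3.78% in *gpa1-2*.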
